A study of Mus musculus with 4 samples.

Results

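The genes described here encode ephrins, Eph receptors, semaphorins, plexins, Slits, Robos and netrin-Gs, the cell-surface and secreted proteins that steer axons and shape synapses. They were chosen by symbol, as genes beginning Epha, Ephb, Efna, Efnb, Sema, Plxn, Robo, Slit with a digit, or Ntng, with at least 50 UMIs (unique molecular identifiers, 1 per captured transcript) over all libraries. Of 27998 genes in the files 63 matched the symbols and 56 passed the minimum. RNA was counted in single nuclei of hippocampi from B6 mice aged 9 months, in 1 pooled library per genotype: wild type (WT, 7 hippocampi), Apoe knock-out (EKO, 7), mice with a human tau transgene carrying the P301S change (P301S, 8) and both together (P301S/EKO, 7). The labels name neither the line nor the promoter of the transgene, and the study's other genotypes are not analysed here. With 1 pool per genotype no test between genotypes was possible. Every difference given here is between 2 pools, and its interval holds counting error only.

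Ephrins are ligands held in the membrane, by a lipid anchor in the A class and by a transmembrane stretch in the B class, and they bind Eph receptor tyrosine kinases on the neighbouring cell. Semaphorins signal through plexins, with neuropilins as co-receptors for most secreted class 3 members. Slits are secreted ligands of Robo receptors, and netrin-Gs are lipid-anchored relatives of the netrins that bind the postsynaptic netrin-G ligands. In the adult hippocampus several of these families remain expressed and are known for roles in dendritic spines, synaptic layers and blood vessels.

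The 5 promoter stretches below belong to genes whose class pattern or change is described further on: endothelial Sema7a and Ephb4, the CA1 ligand Sema3e, the neuronal receptor Epha5 and its ligand Efna5. Each is the 250 bases before the RefSeq start on GRCm38.p6, read 5′ to 3′ on the gene's strand, and holds no annotated exon of GENCODE vM21. Capitals mark the GC box, a motif bound by Sp-family factors, searched as GGGCGG on both strands (CCGCCC on the printed one).
Sema7a: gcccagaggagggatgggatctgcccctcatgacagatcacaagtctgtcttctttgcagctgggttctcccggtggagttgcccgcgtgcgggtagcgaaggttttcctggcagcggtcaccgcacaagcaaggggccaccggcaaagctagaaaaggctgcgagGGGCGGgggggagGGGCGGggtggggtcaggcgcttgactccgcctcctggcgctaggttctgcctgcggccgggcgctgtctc
Ephb4: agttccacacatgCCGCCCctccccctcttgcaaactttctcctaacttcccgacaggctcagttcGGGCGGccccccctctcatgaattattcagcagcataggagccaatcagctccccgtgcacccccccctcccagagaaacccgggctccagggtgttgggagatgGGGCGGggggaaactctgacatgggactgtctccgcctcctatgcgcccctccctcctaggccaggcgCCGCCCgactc
Sema3e: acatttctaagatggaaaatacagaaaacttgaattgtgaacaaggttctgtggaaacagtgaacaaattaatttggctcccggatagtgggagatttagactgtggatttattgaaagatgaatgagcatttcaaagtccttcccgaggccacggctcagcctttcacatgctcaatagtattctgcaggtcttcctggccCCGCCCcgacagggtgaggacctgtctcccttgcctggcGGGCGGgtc
Epha5: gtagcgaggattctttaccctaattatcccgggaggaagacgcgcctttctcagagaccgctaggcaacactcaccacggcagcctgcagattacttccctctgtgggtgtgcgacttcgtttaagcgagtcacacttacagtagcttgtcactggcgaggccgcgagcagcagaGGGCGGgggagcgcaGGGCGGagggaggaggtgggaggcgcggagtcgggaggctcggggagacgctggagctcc
Efna5: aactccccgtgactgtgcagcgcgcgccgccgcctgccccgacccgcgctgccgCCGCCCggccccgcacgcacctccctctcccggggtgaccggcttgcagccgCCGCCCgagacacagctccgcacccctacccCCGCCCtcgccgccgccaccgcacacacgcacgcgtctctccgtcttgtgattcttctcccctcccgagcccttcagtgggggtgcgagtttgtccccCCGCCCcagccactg
The windows lie at chr9:57939862-57940111 (Sema7a, plus strand), chr5:137349859-137350108 (Ephb4, plus strand), chr5:14025026-14025275 (Sema3e, plus strand), chr5:84417383-84417632 (Epha5, minus strand) and chr17:62881318-62881567 (Efna5, minus strand). The GC box was found 2 times in Sema7a, 4 times in Ephb4, 2 times in Sema3e, 2 times in Epha5 and 4 times in Efna5. It was present in 45 of 64 promoters of the 48 members with a RefSeq entry (70.3%) and in 10756 of 32851 promoters of all genes (32.7%). The printed Sema3e window had a GC content of 48.0% and the Efna5 window one of 74.8%, beside a median of 52.4% over all promoters. A match describes these letters only.

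Values per library are given in 1 fixed order: WT, then EKO, then P301S, then P301S/EKO. After filtering 5234, 5199, 2860 and 5274 nuclei remained, from barcodes with a median of 1901, 1443.5, 2152.5 and 1394 UMIs. Barcodes also found in another library numbered 143, 146, 73 and 147. Apoe stood at 1932, 16.4, 6402 and 19.6 CPM (UMIs per 1e6 of the library), following the knock-out labels. Prnp, whose cassette drives tau in a widely used line, stood at 375, 440, 618 and 738 CPM. Nuclei were clustered with the 56 guidance genes left out and named from fixed marker sets, so each class is only "like" its name. The hippocampal label also covered nuclei with upper-layer and deep-layer cortical markers, and the upper-layer name rests on 4 of 9 markers. In a finer clustering (Leiden resolution 2) part of the subicular class fell in a cluster led by Dcn and Col23a1 that took no name. That part held 190, 286, 115 and 304 of the class's 420, 514, 183 and 511 nuclei. The top 10 genes of the endothelial class, of 443 nuclei, included Rgs5, a marker of the pericyte or smooth muscle set. At resolution 2 the endothelial cluster held 302 nuclei. Another of 157 nuclei took the fibroblast name, with Vtn and Atp13a5 of the pericyte set among its top genes. Whether endothelial values hold RNA of such cells was not tested. The dentate granule neuron-like class made up 12.5%, 25.9%, 5.52% and 18.7% of nuclei, and the microglia-like class 4.03%, 2.67%, 11.3% and 6.41%. Below, "-like" is left out.

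Eph receptors held 46.9% of the UMIs of the 56 genes, netrin-G1 alone 15.2%, semaphorins 12.7%, plexins 8.12%, ephrins 6.94%, Slits 5.65% and Robos 4.41%. These are counts from 3′ reads of nuclei and not levels per length, so levels are compared between classes for 1 gene and not between genes. The largest counts were those of Epha5 (40157 UMIs), Ntng1 (24089) and Epha7 (12276). Genes below the minimum were Efna4 and Sema3g (38 UMIs each), Ntng2 (35), Epha2 (29), Plxna4os2 (12), Epha1 (9) and Plxna4os3 (0). Just inside stood Plxna4os1 (60 UMIs), an antisense transcript of Plxna4 whose reads may not be told from its partner's, and Ephb4 (74).

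Guidance genes sorted by cell class. Over 12 classes, 23 of 56 (41.1%) were highest in the same class in all 4 libraries, compared with 22.1% of 13949 genes. For 17 of the 56 (30.4%) the lowest library of the highest class stood above the highest library of the next class, compared with 14.9% of all genes. The highest class was a neuron class for 33 (58.9%), compared with 41.7% of all genes. By class, 9 members were highest in endothelial cells, 7 in CA1 neurons, 7 in deep-layer cortical neurons, and 6 each in dentate granule neurons, upper-layer cortical neurons and oligodendrocyte precursors.

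**Figure D1:**
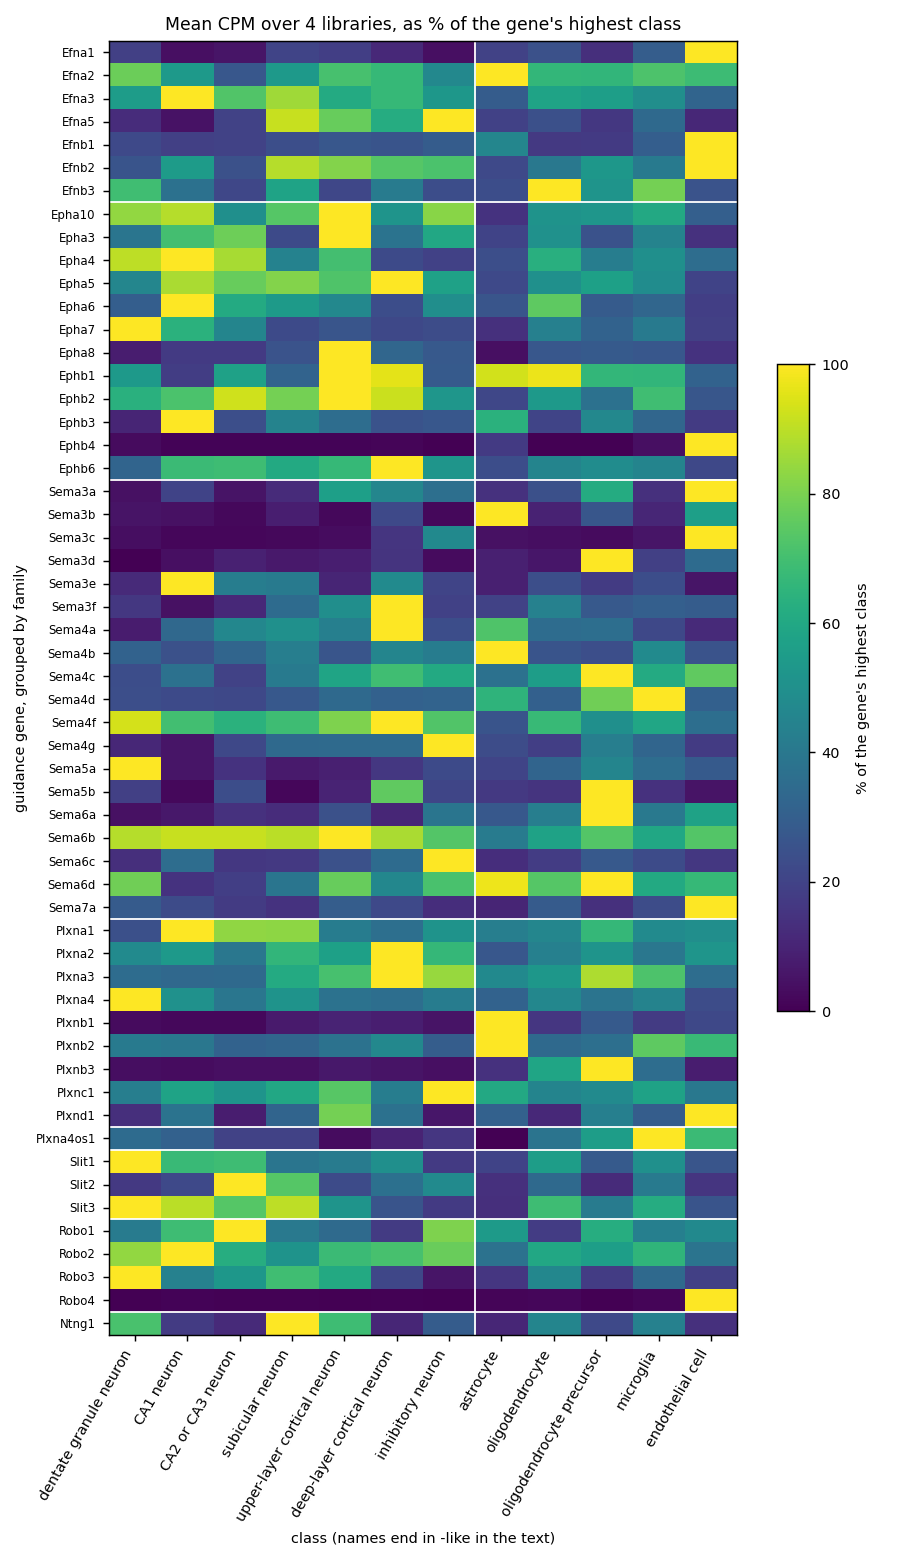
Mean CPM of each guidance gene over the 4 libraries in each of the 12 classes (columns), grouped by family (rows) as a percentage of that gene's highest class, from dark (lowest) to yellow (highest). Robo4 is dark in every class but endothelial cells, while Epha5 is spread over all 7 neuron classes.

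Among ephrins, Efna5, a lipid-anchored ligand of EphA receptors, had its highest mean in inhibitory neurons. It stood there at 62.2, 79.8, 64.3 and 66.7 CPM in WT, EKO, P301S and P301S/EKO, overlapping the subicular values of 30.4, 86.8, 78.8 and 54.0 CPM. Inhibitory neurons led in 2 of the 4 libraries. In CA1 neurons Efna5 stood at 2.09, 4.98, 2.78 and 3.18 CPM. Epha5, a receptor gene for this ligand, was counted in both classes, at 914, 903, 715 and 768 CPM in inhibitory neurons. Efna3, another EphA ligand, had its highest level in CA1 neurons at 71.7, 105, 111 and 114 CPM. Efna1, an ephrin of vessels and epithelia, was highest in endothelial cells at 33.1, 35.2, 40.7 and 50.1 CPM, with the next class, microglia, at a mean of 11.7. Efnb3, a transmembrane ligand known from the midline and from myelin, was highest in oligodendrocytes at 221, 358, 237 and 254 CPM. Microglia, with 169, 268, 204 and 206 CPM of Efnb3, overlapped that range. Free RNA, estimated from neuronal transcripts, was put at 70.6% to 81.3% of UMIs in oligodendrocytes and 60.6% to 85.5% in microglia. The estimate does not tell free RNA from RNA of neurons captured with these nuclei. By mean, Efnb3 stood at 268 CPM in oligodendrocytes and 212 CPM in microglia, above dentate granule neurons, the next class, at 185 CPM. The part of neuronal RNA in this order was not tested, and the order is not read as expression by those cells.

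Eph receptors were led by neurons. Epha5 (chr5:84054761-84417382, minus strand, mm10), a receptor of A-class ephrins, was highest in deep-layer cortical neurons at 1543, 1708, 1069 and 1448 CPM. CA1 neurons held 1493, 1274, 1086 and 1175 CPM of Epha5, which overlaps that range. Epha7 (chr4:28813131-28967499, plus strand), known for limiting spines and dendrites, stood at 675, 671, 664 and 682 CPM in dentate granule neurons and at a mean of 431 in CA1 neurons. Its dentate values hardly differed between the 4 genotypes. Epha4, the receptor that binds both ephrin classes, had a mean of 352 CPM in CA1 neurons, which led in 2 of the 4 libraries, next to a dentate mean of 317 and an inhibitory mean of 68.2. Epha8, a minor receptor here, was highest in upper-layer neurons at 17.4, 9.19, 10.6 and 10.3 CPM. Ephb4, the receptor of venous endothelium, was highest in endothelial cells at 30.7, 14.1, 67.8 and 16.7 CPM. The counts behind those Ephb4 levels were 13, 2, 15 and 2 UMIs.

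Semaphorins split between vessels, neurons and glia. Sema7a, a lipid-anchored semaphorin that also binds integrins, stood at 111, 113, 113 and 150 CPM in endothelial cells, above the next class, upper-layer neurons, in every library. Sema3c, a secreted ligand for neuropilin receptors, stood at 267, 169, 321 and 309 CPM in endothelial cells and at 130, 123, 128 and 126 CPM in inhibitory neurons. Both classes lie far above CA2 or CA3 neurons, at a mean of 4.41 CPM of Sema3c. Sema3e, the secreted ligand of plexin D1, stood at 94.8, 155, 102 and 138 CPM in CA1 neurons, above all 4 deep-layer values of 62.2, 52.9, 58.1 and 62.1. Its receptor gene Plxnd1 had its highest mean in endothelial cells, at 42.5, 28.2, 49.7 and 25.1 CPM, but led there in only 2 of the 4 libraries. Upper-layer neurons, at 21.9, 34.5, 30.8 and 27.8 CPM of Plxnd1, overlapped that range. Sema5a, a transmembrane semaphorin known for limiting synapses of granule cells, stood at 127, 164, 115 and 150 CPM in dentate granule neurons. In CA1 neurons Sema5a stood at 9.43, 9.12, 5.56 and 6.36 CPM, far below the dentate level in every library. Sema6c, a transmembrane semaphorin, marked inhibitory neurons at 129, 93.7, 126 and 115 CPM, with a mean of 41.6 in the next class. Sema4b, a transmembrane semaphorin, was highest in astrocytes at 123, 161, 80.8 and 109 CPM. Sema4d, a plexin B1 ligand known from immune cells and oligodendrocytes, had its highest mean in microglia, at 14.1, 28.4, 28.9 and 32.0 CPM, but led there in only 2 of the 4 libraries. Oligodendrocyte precursors, at 26.8, 10.5, 21.4 and 22.3 CPM of Sema4d, overlapped that range. By mean, the classes after microglia were oligodendrocyte precursors (20.3 CPM) and astrocytes (16.8 CPM), with every neuron class lower. With the free RNA of microglia given above, their Sema4d counts are not read as expression by those cells, and its part was not tested. Sema3d was highest in oligodendrocyte precursors at 26.8, 21.0, 32.1 and 59.5 CPM, from only 4, 2, 3 and 8 UMIs.

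Plexins, the semaphorin receptors, were highest by mean in neurons (Plxna1, Plxna2, Plxna3, Plxna4 and Plxnc1), astrocytes (Plxnb1 and Plxnb2), oligodendrocyte precursors (Plxnb3) and endothelial cells (Plxnd1). Plxnb1 (chr9:109095389-109119917, plus strand), the receptor of Sema4d, stood at 292, 408, 291 and 361 CPM in astrocytes, above the next class, oligodendrocyte precursors, at a mean of 96.1. In CA1 neurons its mean was 6.91 CPM. Plxna4, a receptor for class 3 and class 6 semaphorins, was highest in dentate granule neurons at 136, 141, 159 and 120 CPM, above a subicular mean of 71.2. Plxna2, which binds class 6 semaphorins and shapes mossy fibres, was highest in deep-layer neurons at 98.0, 109, 146 and 81.4 CPM.

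Among the 12 classes ranked, Slit1 and Slit2 were highest in neurons. Slit1 was highest in dentate granule neurons at 135, 145, 207 and 153 CPM, with CA2 or CA3 neurons at a mean of 111. Slit2 was highest in CA2 or CA3 neurons at 126, 129, 116 and 106 CPM, and its subicular mean was 87.8. Fibroblast-like and choroid plexus-like nuclei, too few for the ranking, also held Slit2. The fibroblast-like value was 465 CPM in EKO (213 to 883) from 9 UMIs and 267 CPM in P301S (138 to 466) from 12 UMIs, above the CA2 or CA3 levels. Among Robo receptors 1 member was almost limited to vessels. Robo4 (chr9:37401897-37415115, plus strand), the vascular Robo, stood at 89.8, 84.5, 67.8 and 83.5 CPM in endothelial cells from 38, 12, 15 and 10 UMIs. No other class of the 12 exceeded a mean of 1.59 CPM, and the endothelial value was at least 18.4 times that of the next class in every library. Robo2, a receptor of Slits in neurons, was highest in CA1 neurons at 195, 163, 171 and 123 CPM.

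Ntng1 (chr3:109780040-110144011, minus strand), which encodes netrin-G1, a presynaptic adhesion protein that binds Lrrc4c, was highest in subicular neurons at 1530, 1414, 1151 and 1219 CPM. By mean, dentate granule neurons followed at 1169, 1094, 590 and 926 CPM and upper-layer neurons at 1210, 1032, 751 and 667 CPM. These latter ranges overlap one another. Inhibitory neurons stood at 433, 395, 337 and 386 CPM and CA1 neurons at 263, 326, 91.8 and 246 CPM. CA2 or CA3 neurons held 198, 143, 151 and 140 CPM and deep-layer neurons 152, 168, 113 and 133 CPM of Ntng1.

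**Figure D2:**
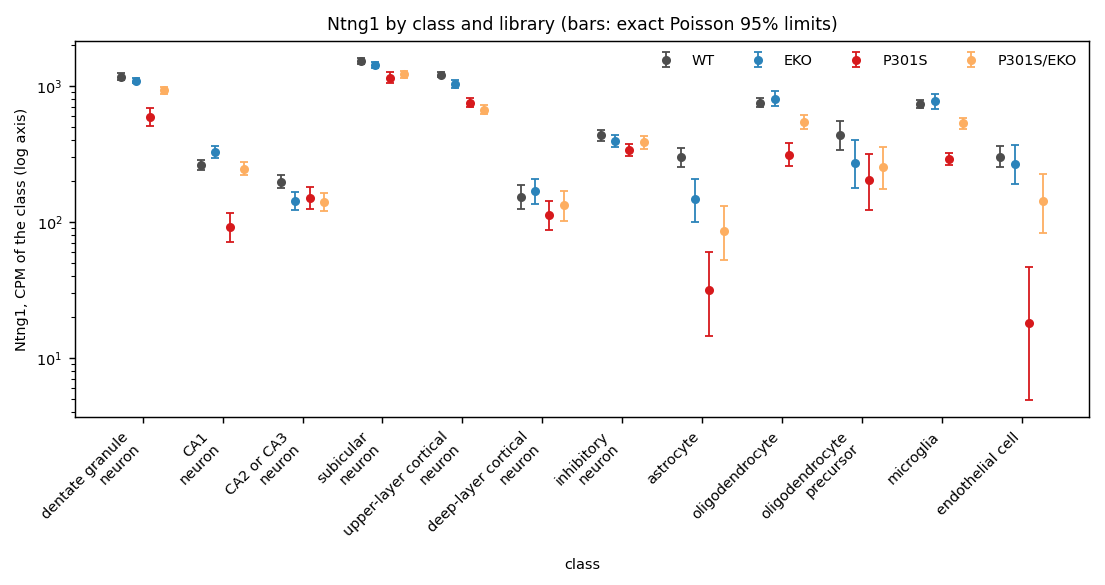
Ntng1 in CPM (log axis) for each of the 12 classes and 4 libraries, with exact Poisson 95% limits of the count as bars. The P301S points lie lowest in dentate granule neurons (590 CPM) and CA1 neurons (91.8 CPM), and in astrocytes, oligodendrocytes, microglia and endothelial cells.

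Genotypes were compared within each class in 4 pairs of libraries. A gene was measured in a class with at least 50 UMIs over the 2 libraries and at least 50 nuclei in each, and was called at 1.5-fold or more. In P301S over WT, 254 pairs of a guidance gene and a class were measured. Of these 28 (11.0%) were called higher and 35 (13.8%) lower, while over all genes 11.7% of pairs were called higher and 6.05% lower. With libraries scaled by the median of gene ratios, 12 pairs were higher (4.72%) and 51 lower (20.1%), next to 6.86% and 10.3% of all genes. With free RNA subtracted outside neurons 8.04% of guidance gene pairs were lower, close to 6.98% of all genes, and with nuclei rich in neuronal RNA left out 9.09%, next to 5.25%. In P301S/EKO over EKO, 11 of 210 pairs were higher (5.24%) and 20 lower (9.52%), with 6.44% and 4.63% over all genes. In EKO over WT, 23 of 240 pairs were higher (9.58%) and 19 lower (7.92%), with 6.09% and 7.49% over all genes. In P301S/EKO over P301S, 16 of 217 pairs were higher (7.37%) and 25 lower (11.5%), with 5.59% and 11.5% over all genes. Median log2 ratios of the guidance genes were −0.02, −0.09, −0.03 and 0.00 in that order, and those of all genes 0.09, −0.01, 0.02 and −0.07. Within a class the median of all genes lay furthest from 0 in CA2 or CA3 neurons, at −0.17 in P301S/EKO over P301S. In P301S over WT it was 0.16 both there and in subicular neurons.

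**Figure D3:**
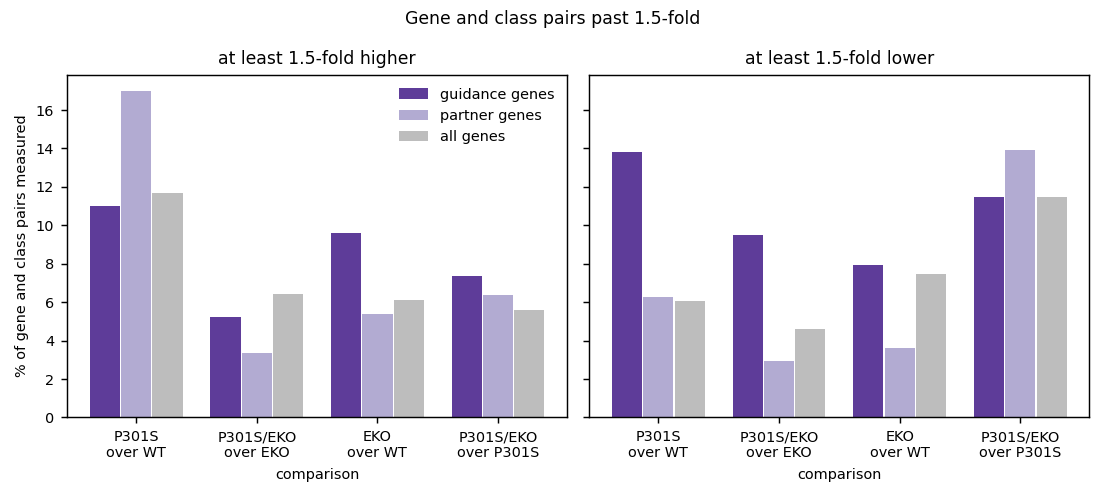
Percent of measured gene and class pairs called at least 1.5-fold higher (left) or lower (right) in each of the 4 comparisons, for guidance genes, their partner genes and all genes. For guidance genes the lower bars in P301S over WT (13.8%) and P301S/EKO over EKO (9.52%) stand above those of all genes (6.05% and 4.63%). With free RNA subtracted outside neurons the first pair of values was 8.04% and 6.98%.

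With the tau transgene and Apoe present, Ntng1 was the guidance gene lower in the most classes. It was called lower in 7 of 11 classes measured in P301S over WT and higher in none. In CA1 neurons the fold was 2.86 lower (interval 2.21 to 3.76), from 502 UMIs in WT and 66 in P301S. In dentate granule neurons it was 1.98-fold lower (1.69 to 2.34) and in upper-layer neurons 1.61-fold lower (1.48 to 1.76). In CA1 and dentate granule neurons, each class taken whole, the P301S library stood below the other 3. Those spanned 246 to 326 CPM in CA1 neurons and 926 to 1169 CPM in dentate granule neurons. The dentate granule share of nuclei, at 12.5%, 25.9%, 5.52% and 18.7%, was highest in EKO and lowest in P301S, as was Ntng1 in CA1 neurons. Free RNA was not subtracted in neuron classes, and the part of dentate RNA in the CA1 values was not tested. In upper-layer neurons both transgenic libraries stood below both others. Subicular, CA2 or CA3, deep-layer and inhibitory neurons differed by 1.28-fold to 1.35-fold, all toward lower values in P301S.

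Ntng1 varied among finer clusters of these classes, whose mix differed between libraries. In the 3 finer dentate clusters Ntng1 stood at 1303, 1088 and 1065 CPM in WT and at 824, 578 and 477 CPM in P301S. Those P301S values rest on 31, 123 and 19 UMIs. In the 3 finer CA1 clusters WT held 239, 237 and 281 CPM and P301S 91.1, 31.7 and 84.2 CPM. Those P301S values rest on 55, 2 and 3 UMIs, with limits of 3.84 to 115 CPM around 31.7 and 17.4 to 246 CPM around 84.2. In the same 3 clusters EKO held 252, 371 and 387 CPM and P301S/EKO 264, 111 and 246 CPM. The upper-layer class held 3 finer clusters. In the one led by Unc13c and Rgs6, which kept the upper-layer name, Ntng1 stood at 1357, 1395, 683 and 957 CPM, and in the one led by Bglap3 and Vwc2l, which took no name, at 423, 525, 220 and 381 CPM. The last, led by Glra1, Ebf1 and Zic1, stood at 2933, 1711, 1749 and 914 CPM and gave 623 of the class's 1882 Ntng1 UMIs in WT. On the fixed sets its best match was Cajal-Retzius cells, with 6 of 6 markers raised but 0 among its top 10 genes. Those top genes also included Baiap3, Tcf7l2, Prkcd, Zfhx3, Slc17a6, Plcb4 and Cacna2d2. Its nuclei cannot be taken as upper-layer neurons. Whether they are Cajal-Retzius cells or a type outside the fixed sets was not tested. Without this cluster, an alternative chosen after seeing the data, the class stood at 938, 985, 579 and 646 CPM. The log2 ratio was then −0.70 in P301S over WT and −0.61 in P301S/EKO over EKO. The deep-layer clusters, 1 led by Ctgf and Cwh43 and 1 by Dnah6 and Nxph3, stood at 154, 157, 82.3 and 101 CPM and at 130, 139, 46.5 and 67.5 CPM, lowest in P301S in both. The value of 46.5 CPM rests on 5 UMIs. P301S stood below WT in all of these dentate, CA1, upper-layer and deep-layer clusters. Inhibitory neurons were mixed, with WT at 158, 190, 1005 and 215 CPM and P301S at 175, 120, 659 and 421 CPM in 4 finer clusters. With each class weighted to the same mix of finer clusters, likewise chosen after seeing the data, the log2 ratios were −0.85 in dentate granule neurons, −1.59 in CA1 neurons and −0.90 in upper-layer neurons. Without that weighting they were −0.99, −1.52 and −0.69.

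**Figure D4:**
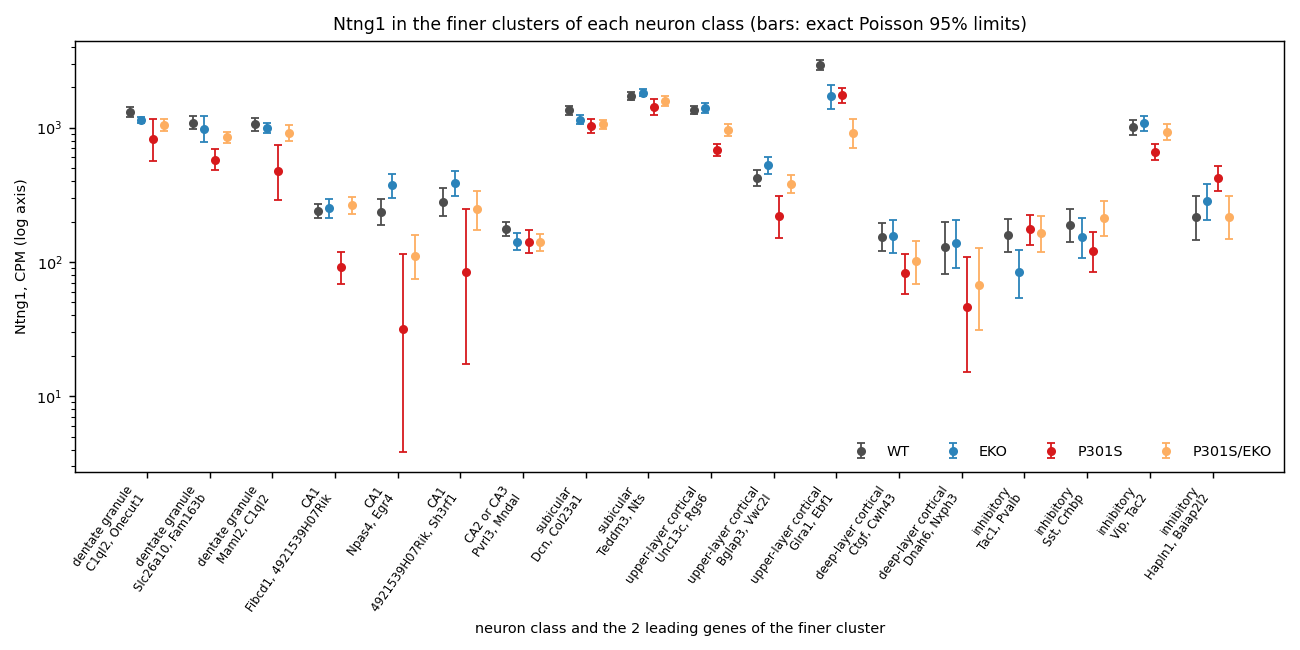
Ntng1 in CPM (log axis) for each finer cluster of the neuron classes, named by leading genes, by library, with exact Poisson 95% limits as bars. The P301S point lies below the WT point in each cluster of the dentate granule, CA1, upper-layer and deep-layer classes, from 2933 against 1749 CPM in the cluster led by Glra1 to 237 against 31.7 CPM in a CA1 cluster. That last P301S point rests on 2 UMIs from 19 nuclei, with limits of 3.84 to 115 CPM.

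Among Eph receptors more pairs were lower than higher in P301S over WT, and among ephrins more were higher. Of 65 Eph receptor pairs, from 10 genes, 5 were called higher and 13 lower. Of 25 ephrin pairs, from 4 genes, 6 were higher and 3 lower, where 11.7% of pairs of all genes were higher and 6.05% lower. A gene counts once per class in these numbers. The lower Eph receptor pairs include Epha5 in astrocytes, endothelial cells, microglia and oligodendrocytes, described below with the neuronal RNA of those classes. In CA2 or CA3 neurons Epha5 had a 1.92-fold lower level (1.76 to 2.11), at 764 against 1470 CPM, and EKO and P301S/EKO stood between at 1095 and 1105 CPM. Its ligand gene Efna5 was 2.59-fold higher in subicular neurons (1.55 to 4.35), where WT stood at 30.4 CPM and EKO, P301S and P301S/EKO at 86.8, 78.8 and 54.0 CPM. WT was thus the low library for Efna5 there. Efnb3 was 1.62-fold higher in the same neurons (1.20 to 2.18), again with WT lowest, at 110 CPM beside 169, 178 and 163 CPM. That Efnb3 call was lost, from a log2 ratio of 0.70, at 0.46 with median-of-ratios scaling, 0.32 with guidance genes kept in the clustering, 0.08 at Leiden resolution 2 and −0.07 with doublets kept. Epha10, a receptor without kinase activity, was 1.62-fold higher in CA1 neurons (1.28 to 2.05) and 1.71-fold higher in dentate granule neurons (1.21 to 2.39). In both classes P301S was the highest of the 4 libraries for Epha10, at 165 and 183 CPM. With median-of-ratios scaling the log2 ratios of Epha10 fell short of the call, at 0.50 and 0.58.

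Among semaphorins and plexins in the same comparison, 9 of 72 semaphorin pairs were called higher and 9 lower, and 6 of 36 plexin pairs higher and 0 lower, next to the same 11.7% and 6.05% of all genes. Plxna1, a receptor for class 3 semaphorins, was 1.63-fold higher in CA1 neurons (1.19 to 2.23) and 1.80-fold higher in upper-layer neurons (1.17 to 2.75). In CA1 neurons WT was the low library for Plxna1, at 57.1 CPM beside 93.7, 93.2 and 88.2 CPM. Sema7a was 2.25-fold higher in CA1 neurons (1.37 to 3.67), with P301S at 45.9 CPM above 20.4, 22.4 and 23.0 CPM. Robo3, a Robo that modulates Slit responses, was 1.99-fold higher in the same class (1.23 to 3.20), with P301S at 45.9 CPM above 23.0, 24.1 and 23.0 CPM. For CA2 or CA3 neurons the Sema5a level was 5.21-fold lower (2.11 to 16.6), from 57 UMIs in WT and 5 in P301S. Sema5b, a transmembrane semaphorin, was 2.41-fold higher in inhibitory neurons (1.28 to 4.82), at 31.3 CPM from 38 UMIs, against 14 UMIs in WT. Slit1 was 1.53-fold higher in dentate granule neurons (1.11 to 2.08), a log2 ratio of 0.61 that was 0.43 with median-of-ratios scaling and 0.47 at the same mix of finer clusters. In these neuron classes markers of other cells were also higher in P301S. The sum of the microglia markers in CA1 neurons was 89.0, 109, 305 and 175 CPM, and that of the astrocyte markers 304, 209, 526 and 405 CPM. Their part in these results was not tested.

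**Figure D5:**
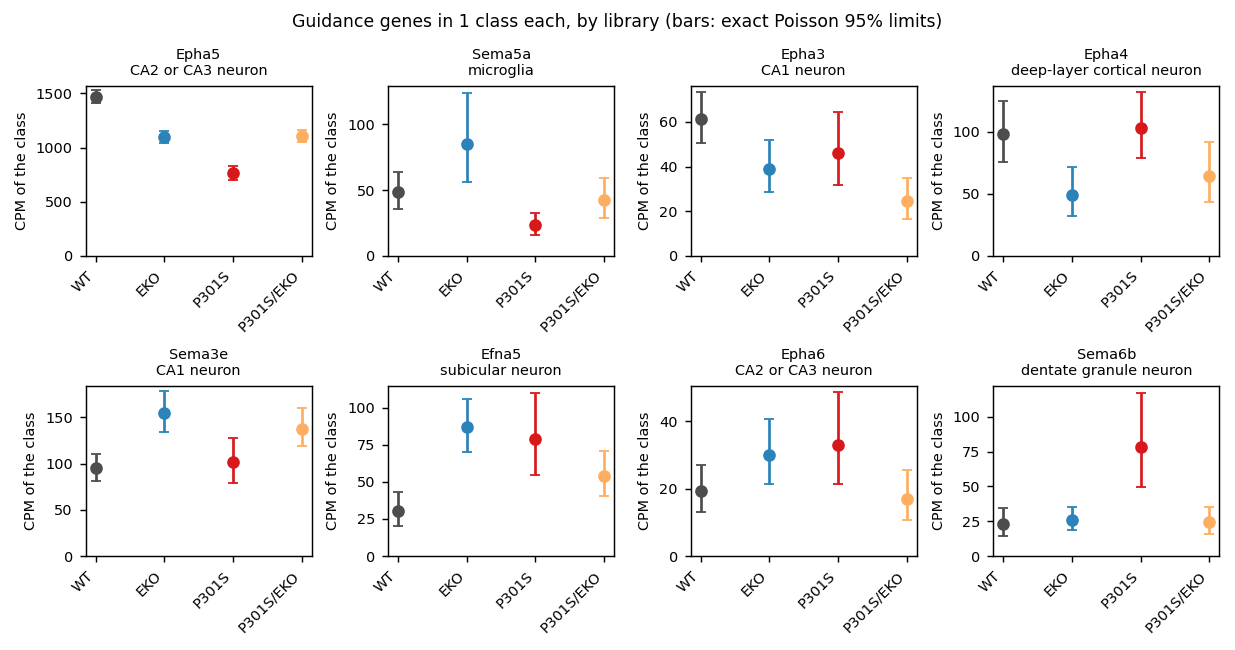
CPM of selected guidance genes in 1 class each, 1 point per library, with exact Poisson 95% limits as bars. The panels share no axis, and each shows which library stands apart, such as P301S for Sema6b in dentate granule neurons (78.0 CPM) and WT for Efna5 in subicular neurons (30.4 CPM).

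Outside neurons, Ntng1 was called lower in P301S over WT in astrocytes, endothelial cells, microglia and oligodendrocytes. In astrocytes 7 of 9 guidance genes measured were called lower, and 16.6% of all genes were. Ntng1 was 9.43-fold lower there (4.84 to 21.0), at 298, 147, 31.6 and 85.1 CPM, and 16.7-fold lower in endothelial cells (6.38 to 62.3), at 302, 268, 18.1 and 142 CPM from 4 UMIs in P301S. Epha5 was 3.06-fold lower in astrocytes (2.27 to 4.21) and 3.08-fold lower in endothelial cells (2.09 to 4.71). In both classes and for both genes P301S was the lowest library and WT the highest. The summed level of 8 neuronal transcripts stood at 12002, 5002, 6514 and 4989 CPM in astrocytes, highest in WT but not lowest in P301S, and at 13064, 10562, 5165 and 9053 CPM in endothelial cells, lowest in P301S. Its part was not tested. With the nuclei richest in neuronal RNA left out, the log2 ratio of Ntng1 in astrocytes was −3.15 beside −3.24 for all nuclei. With doublets kept, the log2 ratio of Ntng1 in endothelial cells was −2.31 beside −4.06. With the nuclei richest in neuronal RNA left out, that of Epha5 there was −0.97 beside −1.63.

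Counts in microglia and oligodendrocytes are not read here as expression by those cells, given their estimated free RNA. From the neuronal transcripts its share of UMIs was put at 85.5%, 60.6%, 71.1% and 72.9% in microglia and 81.3%, 70.6%, 74.1% and 76.7% in oligodendrocytes. Nuclei rich in neuronal RNA made up 78.2%, 45.3%, 64.0% and 53.0% of microglia and 66.8%, 51.4%, 63.6% and 54.2% of oligodendrocytes. Neither share tells free RNA from RNA of neurons captured with the same barcode. In microglia 6 of 36 guidance genes were called higher and 10 lower, next to 14.0% and 7.29% of all genes. Ntng1 was 2.54-fold lower (2.25 to 2.88), at 738, 770, 290 and 531 CPM, and Epha5 1.98-fold lower (1.79 to 2.19), at 956, 704, 482 and 664 CPM. In oligodendrocytes Ntng1 was 2.39-fold lower (1.94 to 2.97), at 749, 805, 313 and 542 CPM, and Epha5 1.85-fold lower (1.56 to 2.21). Summed neuronal transcripts stood at 26578, 21197, 21914 and 22516 CPM in microglia and 25287, 24692, 22837 and 23693 CPM in oligodendrocytes. The summed dentate granule markers stood at 619, 868, 425 and 744 CPM in microglia and 612, 1110, 350 and 706 CPM in oligodendrocytes, lowest in P301S as was Ntng1. Their part was not tested. After subtraction of each library's free RNA profile the log2 ratio of Ntng1 was −3.00 in microglia and −2.51 in oligodendrocytes. Sema4d in microglia was 2.05-fold higher (1.09 to 4.09), with WT the low library at 14.1 CPM. Efna5 in microglia was 2.11-fold higher (1.18 to 3.99), from 16 UMIs in WT and 47 in P301S. In oligodendrocytes Sema6d, a plexin A1 ligand, was 2.28-fold higher (1.29 to 4.02), at 33.3, 49.7, 76.0 and 44.1 CPM.

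With the transgene compared in the absence of Apoe, Epha3 was lower in upper-layer cortical neurons, and the Ntng1 difference there lay near the 1.5-fold threshold. In P301S/EKO over EKO, Ntng1 was 1.55-fold lower in upper-layer neurons (1.40 to 1.71), and 1.18-fold lower in dentate granule neurons (1.10 to 1.28) and 1.32-fold lower in CA1 neurons (1.14 to 1.54). The upper-layer call, at a log2 ratio of −0.63, was lost at −0.58 with at least 500 genes, −0.52 with at least 1100 UMIs, −0.58 with doublets kept, −0.46 at Leiden resolution 2 and −0.56 at the same mix of finer clusters. Epha3, an EphA receptor of cortical and hippocampal neurons, was called lower in 4 neuron classes. It was 1.92-fold lower in upper-layer neurons (1.27 to 2.92), at 66.9, 76.9, 59.4 and 40.2 CPM, and P301S/EKO was the lowest library. The fold was 1.86 in dentate granule neurons (1.11 to 3.23), 1.65 in CA2 or CA3 neurons (1.13 to 2.44) and 1.58 in CA1 neurons (0.984 to 2.58), where the log2 ratio of −0.66 was −0.58 with equal weight per nucleus. Robo2 was 1.78-fold lower in upper-layer neurons (1.32 to 2.40), at 107, 139, 119 and 78.2 CPM. Robo3 was 1.58-fold higher in dentate granule neurons (1.19 to 2.12), at 89.2 CPM, the highest of the 4 libraries. That Robo3 log2 ratio of 0.66 was 0.55 with at least 500 genes per nucleus and 0.52 at the same mix of finer clusters. Sema5b was 2.14-fold higher in CA2 or CA3 neurons (1.27 to 3.68), at 36.8 CPM above 23.5, 17.2 and 15.8 CPM. In microglia Plxnb1 was 2.22-fold lower (1.27 to 3.86), at 62.3, 85.2, 47.0 and 38.4 CPM.

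Without the transgene, Efna5 in subicular neurons and Sema3e in CA1 neurons were higher in EKO than in WT. Of 25 ephrin pairs, from 4 genes, 6 were called higher and 0 lower, where 6.09% of pairs of all genes were higher and 7.49% lower. Those called higher include Efnb3 in subicular neurons, oligodendrocytes and microglia, which was lost under settings given below. Efna5 was 2.86-fold higher (1.89 to 4.44) and Efnb3 1.54-fold higher (1.21 to 1.97) in subicular neurons. In the finer subicular cluster that took no name, Efnb3 stood at 97.4 CPM in WT and 177 CPM in EKO. In the other, led by Teddm3 and Nts, it stood at 123 and 150 CPM. Efna5 stood at 31.0 and 88.7 CPM in the unnamed cluster and at 29.3 and 81.4 CPM in the other. Efnb3 was also 1.62-fold higher in oligodendrocytes (1.27 to 2.06). Both Efnb3 calls were lost under other settings. The subicular log2 ratio of 0.62 was 0.20 with doublets kept, 0.24 at Leiden resolution 2, 0.30 with guidance genes kept in the clustering and 0.58 at the same mix of finer clusters. The oligodendrocyte one of 0.70 was 0.58 with median-of-ratios scaling, 0.47 with at least 1100 UMIs and 0.31 with free RNA subtracted. The Efnb3 call in microglia turned to −0.10 with free RNA subtracted. Sema3e was 1.64-fold higher in CA1 neurons (1.33 to 2.02), and P301S/EKO stood with EKO above both libraries with Apoe, at 138 and 155 beside 94.8 and 102 CPM. Plxna1 was 1.64-fold higher in CA1 neurons (1.25 to 2.16). Epha4 was 2.00-fold lower in deep-layer neurons (1.25 to 3.29) and 1.81-fold lower in inhibitory neurons (1.29 to 2.58). Epha10 was 1.62-fold higher in CA2 or CA3 neurons (1.23 to 2.14), and Robo3 2.05-fold lower in subicular neurons (1.32 to 3.22). Ntng1 stayed within 1.38-fold in every neuron class. In astrocytes it was 2.03-fold lower (1.38 to 3.07), where the summed neuronal transcripts also stood lower in EKO, as given above. That astrocyte call was lost with at least 1100 UMIs per nucleus and with doublets kept, at a log2 ratio of −0.38 in both beside −1.02.

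Loss of Apoe on the transgenic background was accompanied by higher Ntng1 in 4 classes of 9 measured. In P301S/EKO over P301S it was 2.68-fold higher in CA1 neurons (2.05 to 3.56) and 1.57-fold in dentate granule neurons (1.34 to 1.85). It was 1.83-fold higher in microglia (1.59 to 2.10) and 1.73-fold in oligodendrocytes (1.37 to 2.20), whose counts are not read here as expression by those cells. The dentate log2 ratio of 0.65 was 0.52 with at least 1100 UMIs per nucleus and 0.55 at the same mix of finer clusters, which ends that call. In CA1 neurons taken whole this put P301S/EKO (246 CPM) near WT (263 CPM). In the finer CA1 cluster led by Npas4 and Egr4, P301S/EKO stood lower, at 111 CPM (75.0 to 159) against 237 CPM (187 to 296) in WT. The comparison shares the P301S library with P301S over WT, so a low value there enters both. Plxna2 was called lower in 4 neuron classes, and most in deep-layer neurons, where it was 1.80-fold lower (1.21 to 2.70). In CA1, subicular, upper-layer and deep-layer neurons alike, Plxna2 was highest in P301S. The subicular Plxna2 call was lost with median-of-ratios scaling (log2 −0.54) and with equal weight per nucleus (−0.49), and the upper-layer one with guidance genes kept in the clustering (−0.55). Sema6b, a transmembrane plexin A ligand, was 3.21-fold lower in dentate granule neurons (1.77 to 5.79), with P301S at 78.0 CPM above 23.1, 26.1 and 24.3 CPM. Sema7a and Robo3 were each 1.99-fold lower in CA1 neurons (1.17 to 3.40). Slit1 was 1.67-fold higher in CA1 neurons (1.23 to 2.28), and Sema4a, a transmembrane semaphorin, 2.25-fold higher in CA2 or CA3 neurons (1.43 to 3.69).

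Few calls appeared the same way in both pairs of libraries of a factor. For the transgene, 4 of 194 pairs measured in both comparisons were called the same way (2.06%), next to 1.94% of 42703 pairs of all genes. These were Ntng1, lower in upper-layer neurons, astrocytes and endothelial cells, and Sema5a, lower in microglia. The upper-layer Ntng1 call in the second pair was lost under the 5 settings given above. In endothelial cells its log2 ratio of −0.91 in that pair was −0.36 with guidance genes kept in the clustering and 0.19 with doublets kept. In astrocytes the fold in that pair had an interval of 0.965 to 3.15, and the log2 ratio of −0.79 was −0.58 with doublets kept and −0.35 with equal weight per nucleus. Sema5a in microglia stood at 48.2, 85.2, 23.1 and 42.2 CPM, 2.09-fold lower (1.31 to 3.37) in the first pair and 2.02-fold lower (1.17 to 3.46) in the second. For Apoe loss, 3 of 196 pairs were called the same way (1.53%), next to 2.20% of 44275. Sema5a in microglia was 1.77-fold higher without Apoe (1.06 to 2.89) and, with the transgene, 1.83-fold higher (1.09 to 3.07). The first of these Sema5a log2 ratios, 0.82, was 0.54 with doublets kept and 0.26 with equal weight per nucleus. The summed dentate granule markers in microglia were likewise highest in EKO (868 CPM) and lowest in P301S (425 CPM), and their part in this result was not tested. Epha3 was lower in CA1 neurons in both pairs, at 61.3, 39.0, 45.9 and 24.6 CPM, and its log2 ratio of −0.65 in EKO over WT was −0.55 at Leiden resolution 2 and −0.58 at the same mix of finer clusters. Epha4 was lower in deep-layer neurons in both pairs, at 98.0, 49.1, 103 and 64.2 CPM. With the transgene the Epha4 call was lost, from a log2 ratio of −0.68, at −0.16 with doublets kept, −0.20 at Leiden resolution 2, −0.18 with guidance genes kept in the clustering and −0.33 at the same mix of finer clusters.

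Partner genes of the same pathways, from a list outside the symbol rule, gave 49 pairs called higher and 18 lower of 288 in P301S over WT. These shares, 17.0% and 6.25%, stand beside 11.7% and 6.05% of all genes, and the group counts below are read against the same background. Genes of the netrin-G ligand family (Lrrc4c, Lrrc4 and Lrrc4b) were called higher in 7 of 22 pairs and lower in 1. Not all of them bind netrin-G1, so this count does not describe partners of Ntng1. Lrrc4b was 2.19-fold higher in inhibitory neurons (1.44 to 3.42), at 65.2 against 29.7 CPM, and 2.07-fold higher in subicular neurons (1.29 to 3.32). Lrrc4c, the ligand that binds Ntng1, was 2.20-fold lower in dentate granule neurons (1.05 to 5.33), from 62 UMIs in WT and 8 in P301S. In CA1 neurons, where Ntng1 had its largest neuronal fold, Lrrc4c stood at 64.0 against 69.6 CPM. Neuropilins were called higher in 4 of 19 pairs and lower in 0, among them Nrp2 at 1.58-fold in CA2 or CA3 neurons (1.19 to 2.10). In P301S/EKO over P301S neuropilins were called higher in 1 of 17 pairs and lower in 4, where 5.59% and 11.5% of pairs of all genes were, among them Nrp2 in CA2 or CA3 neurons, 1.84-fold lower (1.35 to 2.52). Cntn2, an adhesion co-receptor, was 2.31-fold higher in CA1 neurons of P301S (1.57 to 3.39). Unc5b, a netrin receptor, was 2.52-fold higher in microglia (1.47 to 4.52). Semaphorin signalling genes were called higher in 10 of 57 pairs and lower in 1.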

How the data were processed

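Single-nucleus RNA was measured with 10x 3′ chemistry in 4 libraries, 1 per genotype, grouped by the labels. Per gene and barcode, the deposited values are UMI counts in whole numbers. Cell Ranger, Seurat and the mm10 genome are named in the submitters' processing notes. Tool versions, and whether intron reads were counted, are not given in the sources. Gene positions came from GENCODE vM21 and promoters from RefSeq on GRCm38.p6.

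Filters required 200 genes per barcode and no more than 5% mitochondrial UMIs. Scrublet's own threshold called at most 1 doublet per library, so the highest scores were removed at 0.8% per 1000 barcodes (271, 261, 74 and 302 barcodes, ordered as in the report). Total depth was 14251675, 10283013, 8369762 and 11358953 UMIs. Nuclei were clustered on 2000 variable genes, 30 principal components and 15 neighbours with the Leiden method at resolution 1. Guidance genes, the mitochondrial and sex-linked genes, and Apoe, Mapt and Prnp did not enter the clustering. A cluster took a name when at least 3 markers of 1 of 20 fixed sets stood 1.5-fold above other nuclei and no other set had more markers among its top 10 genes.

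UMIs were summed per class and library and scaled to CPM. Ratios are of plain CPM, with exact conditional binomial 95% intervals, and levels have exact Poisson limits. Both hold counting error only. The calls were tried on counts simulated with counting error alone, which cannot show how pools, class mix or admixed RNA differ. Classes with fewer than 50 nuclei in a library were not compared, which leaves oligodendrocyte precursors out of comparisons with P301S.

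The genes named were, per class, up to 3 members highest above the next class, and per comparison and class up to 2 called members per direction by the interval limit nearest 1, with those called alike in both pairs of a factor. Partner genes were named likewise. Other members given beside them were chosen after their values were seen. The members and lists were chosen with earlier results of these data known. The 10 alternatives planned were other scaling, 2 depth minimums, doublets kept, resolution 2, members kept in the clustering, neuron-rich nuclei left out, free RNA subtracted, equal weight per nucleus and no minimum count, and 2 were added. The work used scanpy 1.11.5, scikit-learn 1.9.0, igraph 0.11.9, pandas 2.3.3, matplotlib 3.10.9, scipy 1.17.1, numpy 2.4.6 and Python 3.11.15.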

Additional observations from a re-analysis of the deposited data

Results flagged for a closer look

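Epha6, an EphA receptor, differed in opposite directions between the pairs of libraries that compare the transgene in CA2 or CA3 neurons. Its log2 ratio was 0.77 in P301S over WT and −0.83 in P301S/EKO over EKO, at 19.3, 29.9, 32.9 and 16.9 CPM in WT, EKO, P301S and P301S/EKO. Efna5 did so in subicular neurons, with log2 ratios of 1.38 and −0.68. The second Efna5 call was lost at −0.34 with doublets kept, −0.30 at Leiden resolution 2 and −0.11 with guidance genes kept in the clustering. Opposite calls were found for 2 of 194 guidance gene pairs (1.03%) and for 0.696% of pairs of all genes. With 1 library per genotype the difference between the ratios was not tested.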

How the results depend on the processing

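Counts of called pairs kept within 1.5 times of the reported ones under most settings. The exceptions in P301S over WT were 12 higher with median-of-ratios scaling, and, of the lower pairs, 18 with neuron-rich nuclei left out and 16 with free RNA subtracted. In P301S/EKO over EKO they were 7 higher with at least 500 genes and 4 with at least 1100 UMIs per nucleus. In EKO over WT they were 12 lower with neuron-rich nuclei left out and 10 with free RNA subtracted, and in P301S/EKO over P301S 16 lower with median-of-ratios scaling. With no minimum above 1 UMI the counts higher and lower were 136 and 114 in P301S over WT, 144 and 132 in P301S/EKO over EKO, 115 and 173 in EKO over WT, and 111 and 164 in P301S/EKO over P301S, since many more pairs were then measured.

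The direction turned for Efnb3 in microglia in EKO over WT (log2 −0.10) and Plxnb3 in microglia in P301S over WT (−0.19) with free RNA subtracted. With doublets kept it turned for Efnb3 in subicular neurons in P301S over WT (−0.07) and Ntng1 in endothelial cells in P301S/EKO over EKO (0.19). The cause was not tested. Of 120 named pairs, 89 to 107 remained past 1.5-fold under each setting other than no minimum and the smaller upper-layer class, with pairs that could not be measured there counted as lost. Pools, not animals, were compared, and low counts limit endothelial and astrocyte ratios. No paired analysis was possible because each genotype has 1 library, and no library could be left out for the same reason.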
